A study of Homo sapiens with 9 samples.

Results

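Metallothioneins are small, cysteine-rich proteins that bind zinc, copper and cadmium. The 8 genes MT1A, MT1E, MT1F, MT1G, MT1H, MT1M, MT1X and MT2A were taken by their Entrez Gene numbers (4489, 4493, 4494, 4495, 4496, 4499, 4501 and 4502, in that order) from the 20575 genes in the RNA-seq files of Huh7 cells, an established line of human hepatocellular carcinoma (HCC) cells. The study knocked down LATS1 or LATS2, kinases of the Hippo pathway, to search by RNA-seq for how LATS1 favours the survival of HCC cells. The 9 samples were 3 of cells transfected with a control siRNA (siControl), 3 with an siRNA against LATS1 (siLATS1) and 3 with an siRNA against LATS2 (siLATS2). All were transfected with the RNAiMAX reagent and collected 48 h later. The labels name no further agent, whereas the study's Methods describe the sequenced cells as treated with the kinase inhibitor sorafenib too, so whether these samples had received it could not be settled here. Every group is thus a transient transfection of 1 line, in what the Methods call biological triplicates.

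Metallothionein genes are switched on by the zinc-sensing transcription factor MTF1, which binds metal response elements in their promoters, and they also respond to glucocorticoids and oxidative stress. The liver is a main site of their expression, and MT2A and the MT1 genes lie side by side on the long arm of human chromosome 16. The zinc exporter SLC30A1 is another known MTF1 target, whereas transcription of the zinc importer SLC39A10 is known to be held back by MTF1 when zinc is plentiful.

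On GRCh37, the build of the deposited data, the 8 genes ran along chromosome 16 in the order MT2A (56642496 to 56643409), MT1E (56659387 to 56661024), MT1M (56666571 to 56667893), MT1A (56672578 to 56673999), MT1F (56691643 to 56694610), MT1G (56700642 to 56701977), MT1H (56703726 to 56705041) and MT1X (56716382 to 56718108). MT1G lay on the minus strand and the other 7 on the plus strand. The transcripts that the annotation marks as canonical had 3 exons, except that of MT1E, which had 2. They were 396 to 746 bases long, that of MT1E being the longest. The levels per length given below rest on these transcripts. The promoters of 3 of the 8 genes were at hand in RefSeq (GRCh38.p14). They are shown as sequences only, and whether their matches bear on the levels described below was not tested. Capitals mark the core letters of the metal response element, TGCACNC or TGCGCNC, on either strand, without overlap, in the window from 250 bases before to 50 bases after the gene's start.
MT2A, chr16:56608334-56608633, plus strand: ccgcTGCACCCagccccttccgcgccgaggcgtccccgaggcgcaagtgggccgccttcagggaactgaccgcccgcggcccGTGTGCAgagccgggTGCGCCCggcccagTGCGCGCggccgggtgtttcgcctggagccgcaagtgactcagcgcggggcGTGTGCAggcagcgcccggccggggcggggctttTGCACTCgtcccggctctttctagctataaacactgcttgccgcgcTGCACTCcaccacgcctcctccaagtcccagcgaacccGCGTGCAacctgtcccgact
MT1X, chr16:56682220-56682519, plus strand: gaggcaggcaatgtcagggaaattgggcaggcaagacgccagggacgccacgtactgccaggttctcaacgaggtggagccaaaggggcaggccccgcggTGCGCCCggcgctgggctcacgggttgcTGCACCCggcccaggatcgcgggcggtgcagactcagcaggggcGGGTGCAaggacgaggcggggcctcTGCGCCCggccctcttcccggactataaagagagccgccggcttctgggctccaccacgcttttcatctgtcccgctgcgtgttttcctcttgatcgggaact
MT1H, chr16:56669564-56669863, plus strand: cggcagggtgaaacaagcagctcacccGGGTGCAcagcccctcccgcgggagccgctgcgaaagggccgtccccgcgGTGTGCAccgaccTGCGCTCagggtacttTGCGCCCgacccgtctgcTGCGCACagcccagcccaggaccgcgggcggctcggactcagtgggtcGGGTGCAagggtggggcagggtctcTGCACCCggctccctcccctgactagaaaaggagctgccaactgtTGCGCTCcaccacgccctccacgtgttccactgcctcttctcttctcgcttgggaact
The MT2A window held 8 matches, the MT1X window 4 and the MT1H window 8. Outside the family, the SLC30A1 window held 2, the SLC39A10 windows 0 and 1, and the MTF1 window 0. Of 35116 promoter windows of that length in the table, 29.6% held at least 1 match, 0.601% at least 4 and 0.0199% at least 8. The letters TATAAA stood before the start of MT2A and MT1X, and 7.33% of all windows held them at any place. A match to these letters is a description of the sequence and not a measured site of binding.

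The depth was 23548247 to 32193525 reads per sample, recovered from the deposited CPM values (read counts per gene, scaled to the same library total), which were whole multiples of 1 read. Values are given as CPM scaled between samples with TMM (trimmed mean of M values) factors. Of the 20575 genes, 12901 had at least 1 CPM in at least 3 samples and were tested, among them 6 of the 8 metallothionein genes. MT1H and MT1M did not pass this filter. All 10 hepatocyte marker genes examined passed it, with a summed level of 13055 to 23282 CPM in the 9 samples, while 11 markers of fibroblasts, endothelium and blood summed to 121 to 268 CPM. Nearly all of that sum was LUM, the gene of the matrix protein lumican, at 112 to 262 CPM, and each of the other 10 markers stayed at or below 3.44 CPM in every sample. Among the samples, siControl replicate 1 stood apart over all genes, with a Pearson's r of log2(CPM + 1) across genes of 0.859 and 0.866 to siControl replicates 2 and 3, against 0.995 between those. The level of LATS1, the targeted gene, was 107, 56.0 and 67.0 CPM in siControl, 26.6, 19.96 and 15.7 CPM in siLATS1, and 54.1, 76.6 and 51.8 CPM in siLATS2. All 3 siLATS1 samples were below all others (log2 fold change -1.81 against siControl, SE 0.29, adjusted p = 0.112 by limma). LATS2 was not analysed here, so the siLATS2 label was not checked.

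Per length, MT1F and MT1X were the most abundant of the 8, with medians of 67.7 and 62.1 CPM per kb of transcript over the 9 samples. MT2A followed with 31.9, then MT1E with 15.95, MT1G with 8.76, MT1A with 2.55, MT1M with 0.710 and MT1H with 0.102 CPM per kb. The spread among samples was wide, and the ranges of every pair of neighbours in this order overlapped. MT1F ran from 2.61 to 85.9 CPM per kb and MT1X from 9.83 to 105 CPM per kb. By sample, MT1X was above MT1F per kb in 7 of 9 samples, so the order of these first genes differs between the median and most single samples. Together MT1X, MT1F and MT2A made up 31.8%, 29.2% and 18.7% of the metallothionein CPM.

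The 8 genes did not separate the siRNA groups, but within each group they split the samples by replicate number. Their summed level was 6.19, 131 and 142 CPM in siControl replicates 1, 2 and 3, then 17.5, 90.7 and 96.4 CPM in siLATS1, and 25.2, 62.0 and 98.8 CPM in siLATS2. Replicate 1 was the lowest sample of each group, and the groups overlapped. In bulk samples such as these, fewer expressing cells and less RNA per cell cannot be told apart. The group means were 93.1 ± 75.5, 68.2 ± 44.0 and 62.0 ± 36.8 CPM (SD, n = 3).

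**Figure D1:**
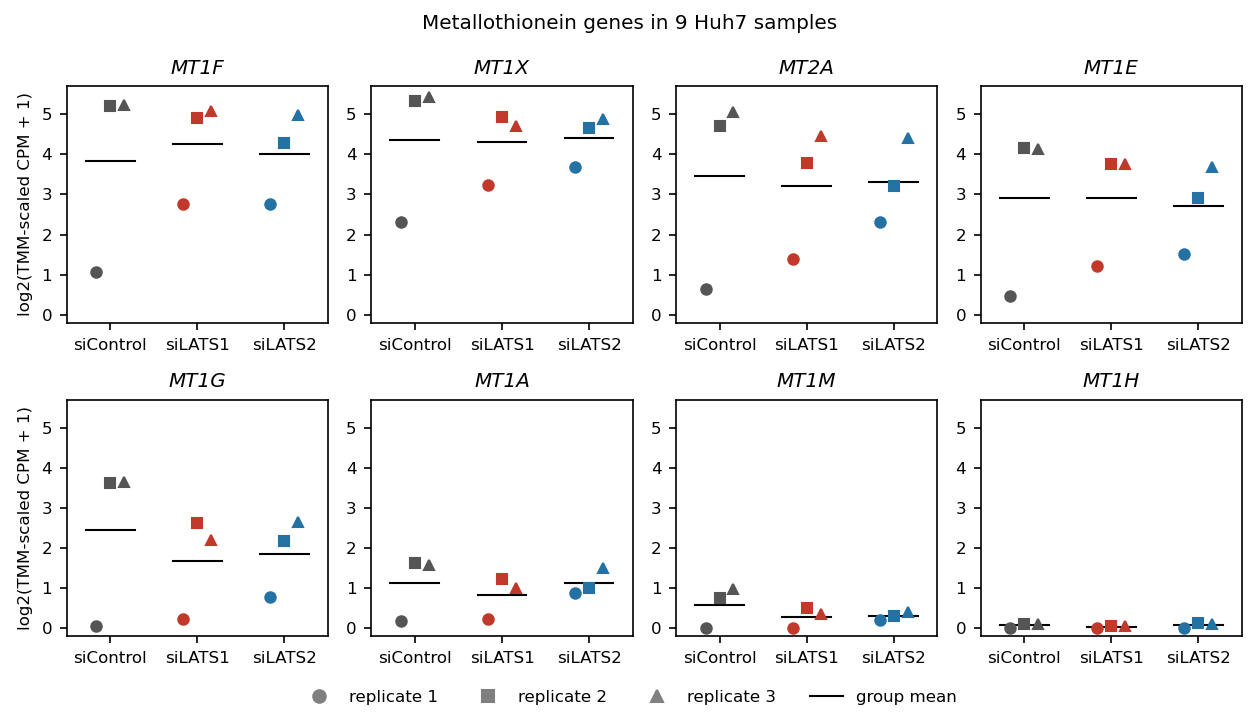
Level of each of the 8 metallothionein genes in each of the 9 samples, as log2(TMM-scaled CPM + 1) on the vertical axis, by siRNA group. Circles, squares and triangles are replicates 1, 2 and 3, and the line is the group mean. The circle is the lowest point in every group of every gene.

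MT2A encodes the most widely expressed human metallothionein. Its level was 0.555, 25.1 and 32.1 CPM in siControl, 1.64, 12.8 and 20.9 CPM in siLATS1, and 3.93, 8.17 and 20.3 CPM in siLATS2. The 3 samples numbered 1 were the 3 lowest of the 9, and siControl held both the lowest and the highest sample. The log2 fold change on the log2(CPM + 1) scale was -0.25 for siLATS1 against siControl (SE 1.27, adjusted p = 0.977 by limma) and -0.16 for siLATS2 against siControl (SE 1.27, adjusted p = 0.970 by limma).

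MT1X and MT1F, further zinc-binding isoforms, held the highest levels. MT1X stood at 3.97, 39.0 and 42.3 CPM in siControl, 8.43, 29.6 and 25.1 CPM in siLATS1, and 11.9, 24.2 and 28.4 CPM in siLATS2. MT1F stood at 1.11, 35.9 and 36.5 CPM in siControl, 5.79, 28.8 and 32.8 CPM in siLATS1, and 5.81, 18.4 and 30.7 CPM in siLATS2. In both genes the samples numbered 1 were again the lowest 3, and siControl replicates 2 and 3 the highest 2. The log2 fold change of MT1X was -0.06 for siLATS1 (SE 0.86, adjusted p = 0.993 by limma) and 0.05 for siLATS2 (SE 0.86, adjusted p = 0.987 by limma), each against siControl. For MT1F it was 0.41 for siLATS1 (SE 1.20, adjusted p = 0.970 by limma) and 0.17 for siLATS2 (SE 1.20, adjusted p = 0.965 by limma). The sign of these small values depended on the scale. The mean CPM of MT1F was lower in siLATS1 (22.5 ± 14.6) and siLATS2 (18.3 ± 12.4) than in siControl (24.5 ± 20.3; SD, n = 3), and edgeR on the recovered reads gave log2 fold changes of -0.13 and -0.42. For MT1X in siLATS2 the means were 21.5 ± 8.54 against 28.4 ± 21.3 CPM (SD, n = 3), and edgeR gave -0.41.

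MT1E, MT1G and MT1A were expressed at lower levels. MT1E had 0.384, 16.8 and 16.5 CPM in siControl, 1.31, 12.5 and 12.6 CPM in siLATS1, and 1.88, 6.50 and 11.9 CPM in siLATS2. MT1G had 0.0427, 11.4 and 11.6 CPM in siControl, where the first value is a single read, 0.167, 5.18 and 3.59 CPM in siLATS1, and 0.707, 3.48 and 5.30 CPM in siLATS2. MT1A had 0.128, 2.12 and 1.96 CPM in siControl, 0.167, 1.35 and 1.01 CPM in siLATS1, and 0.830, 0.995 and 1.85 CPM in siLATS2. In all 3 genes the groups overlapped, with siControl replicate 1 at the bottom and siControl replicates 2 and 3 at the top. On the log2 scale, the largest difference among the 6 tested genes was that of MT1G in siLATS1 against siControl, 2.98 ± 2.56 against 7.68 ± 6.61 CPM (SD, n = 3), a log2 fold change of -0.77 (SE 1.07, adjusted p = 0.970 by limma). In siLATS2, MT1G stood at 3.16 ± 2.31 CPM (SD, n = 3), a log2 fold change of -0.59 against siControl (SE 1.07, adjusted p = 0.919 by limma). For MT1E and MT1A the log2 fold changes were -0.01 and -0.31 in siLATS1 and -0.21 and -0.00 in siLATS2.

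MT1M and MT1H were near the limit of detection. MT1M had 0, 17 and 25 reads in siControl, 0, 12 and 7 reads in siLATS1, and 5, 7 and 9 reads in siLATS2. MT1H had 0, 2 and 2 reads, 0, 1 and 1 read, and 0, 3 and 2 reads in the same order. Here too the sample numbered 1 was the lowest of its group, although for MT1H no sample exceeded 3 reads and no fold can be given.

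The design compares either knockdown with siControl. The study's Methods set the threshold at an absolute log2 fold change of 0.58 and an unadjusted p of 0.05. By this rule limma called 0 of the 6 tested metallothionein genes between siLATS1 and siControl, where 2.59% of all genes tested were called (334 genes). It called 0 of 6 between siLATS2 and siControl, beside 0.225% of all genes tested, and 0 of 6 between siLATS1 and siLATS2, beside 1.86%. With adjusted p-values it was 0 of 6 in each comparison, where 0.0698% of all genes tested passed between siLATS1 and siControl and none in the other comparisons. The groups overlapped in all 6 genes and all 3 comparisons, while 9.63%, 3.29% and 12.8% of all genes tested had groups that did not overlap. None of the 6 had an unadjusted p under 0.05 in any of these comparisons, and edgeR and DESeq2 on the recovered reads also called 0 of them. The median log2 fold change of the 6 genes was -0.16, -0.08 and -0.10 in the 3 comparisons, against -0.01, 0.00 and -0.03 over all genes tested. The intervals were wide. For MT2A in siLATS1 against siControl the 95% confidence interval ran from -3.17 to 2.67 on the log2 scale, and for MT1A, the narrowest, from -1.30 to 0.68. Differences well beyond the threshold would thus not have been detectable in these samples. Exact permutation tests of the single genes, two-sided, gave p-values between 0.6 and 1, where 3 samples against 3 allow no p below 0.1.

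Which samples carried these differences can be read from the levels themselves. In replicates 2 and 3, both siControl samples lay above all 4 siLATS1 and siLATS2 samples in 6 of the 6 tested genes, an order that 10.2% of all genes tested showed. In replicate 1 the order was turned around, with siControl lowest and siLATS2 highest in all 6 genes, an order found in 37.8% of all genes tested. The 6 genes share their libraries and are not independent of each other. This split of the replicates and these orders were chosen after the values were seen, and they carry no test. Without siControl replicate 1, the sample that stood apart, all 6 log2 fold changes were negative in both comparisons with siControl. MT1G then passed the unadjusted threshold at -1.91 in siLATS1 (adjusted p = 0.351 by limma) and at -1.74 in siLATS2 (adjusted p = 0.9996 by limma), and MT1A at -0.75 in siLATS1 (adjusted p = 0.373 by limma). In that fit 2.5% of all genes tested were called lower in siLATS1 and 0.279% in siLATS2. It kept the low replicate 1 of siLATS1 and siLATS2 while dropping that of siControl, which by itself lowers all 6 values. Without siLATS1 replicate 1 instead, 0 of the 6 were negative in siLATS1 against siControl. Without siLATS2 replicate 1, 1 of the 6 was negative in siLATS2 against siControl. With replicates 2 and 3 of each group alone, a choice made after seeing the data, MT1G was called at -1.18 in siLATS1 (adjusted p = 0.318 by limma). In siLATS2, MT1G at -1.19, MT2A at -1.03 and MT1E at -0.80 were called in the same fit (adjusted p = 0.989 by limma for each), beside 0.984% and 0.496% of all genes tested called lower in siLATS1 and siLATS2. No metallothionein gene passed after adjustment in any of these fits. Over all genes tested, deviations from the group mean in siControl replicate 1 correlated with those in siLATS1 replicate 1 (r = 0.920) and siLATS2 replicate 2 (0.872). With siLATS2 replicate 1 the correlation was -0.487. Of these, siLATS2 replicate 2 stayed in the fit without siControl replicate 1 and in that of replicates 2 and 3 alone. Its part in the lower values was not tested.

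**Figure D2:**
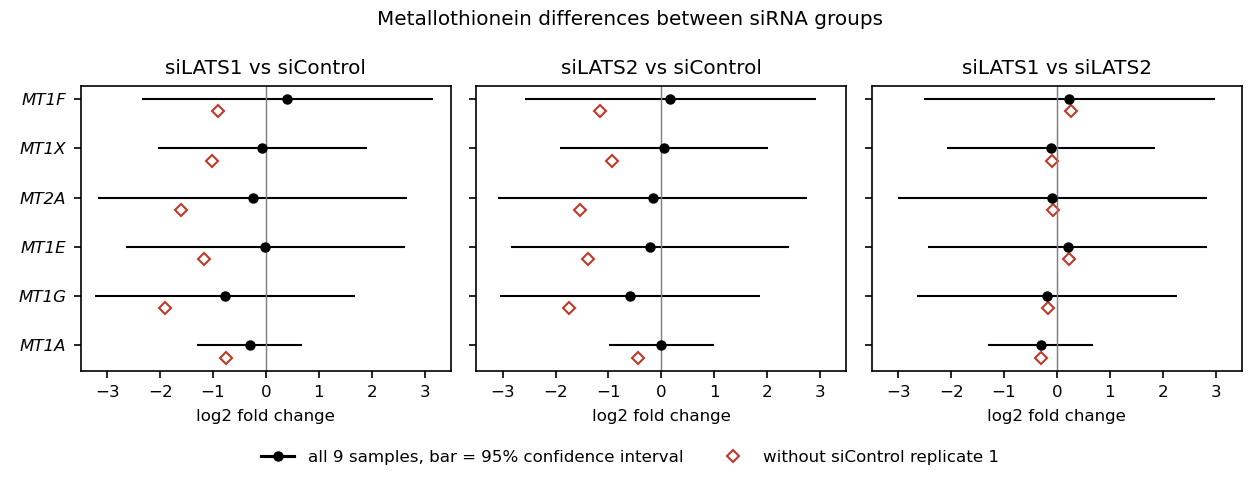
Log2 fold changes of the 6 tested metallothionein genes on the log2(TMM-scaled CPM + 1) scale in the 3 comparisons. Black points and bars are the limma estimate over all 9 samples with its 95% confidence interval, and open diamonds the estimate without siControl replicate 1. Every bar crosses 0, and in both comparisons with siControl every diamond lies to the left of its point.

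The distance between replicates of 1 group was among the largest of all genes. MT2A had a residual SD of 1.80 on the log2 scale, higher than in 99.9% of the 12901 genes tested, where the median was 0.302. MT1F had 1.70, MT1E 1.62, MT1G 1.51 and MT1X 1.21, at the percentiles 99.8, 99.7, 99.3 and 97.6. MT1A had 0.60, at the percentile 83.2. The spread was widest in siControl for each of the 6 genes, with an SD of 2.45 for MT2A, then in siLATS1 with 1.61, and smallest in siLATS2 with 1.06. Over all genes tested the median SD had the same order, 0.41, 0.24 and 0.19.

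**Figure D3:**
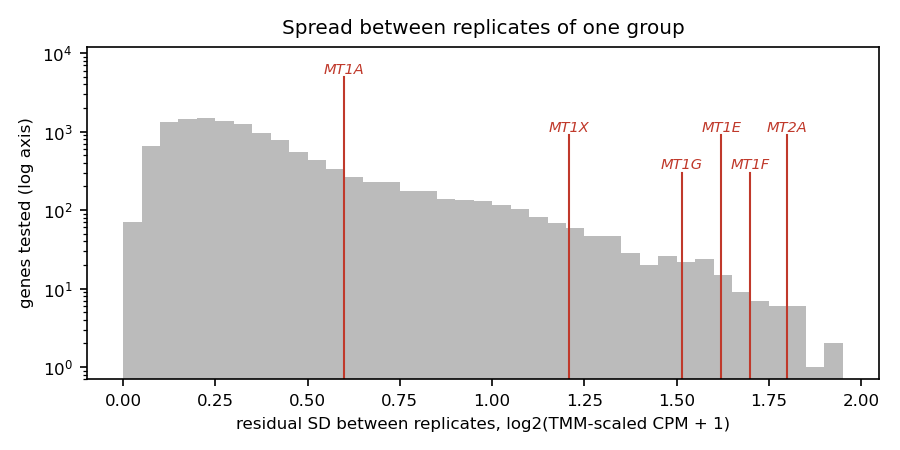
Number of genes (vertical log axis) by residual SD between replicates of log2(TMM-scaled CPM + 1) for the 12901 genes tested, with red lines at the 6 tested metallothionein genes. MT2A lies at 1.80 near the right end, and MT1A at 0.60 is the nearest to the bulk.

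The sample numbered 1 was the lowest of its group in all 3 groups for all 8 metallothionein genes, which held for 2.61% of all genes tested (337 genes). The pooled level of MT2A in replicates 2 and 3 was 51.6 times that of replicate 1 in siControl (counting interval 30.1 to 97.2), 10.1 times in siLATS1 (7.59 to 13.8) and 3.60 times in siLATS2 (2.98 to 4.37). For MT1F this ratio was 32.6, 5.29 and 4.21, and for MT1X 10.2, 3.26 and 2.20. In every one of these genes it was largest in siControl and smallest in siLATS2. These 95% intervals cover counting error only. For MT1M replicates 2 and 3 were at least 6.55-fold higher in siControl and at least 3.57-fold higher in siLATS1, with 3 reads in replicate 1 as the floor.

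A log2 difference of at least 0.58 between replicate 1 and the mean of replicates 2 and 3, downwards in all 3 groups, was found in 5 of the 12901 genes tested (0.0388%), and all 5 were metallothioneins. They were MT1E, MT1F, MT1G, MT1X and MT2A. No gene differed by as much upwards in all 3 groups. The difference of MT2A was -4.24 in siControl, -2.72 in siLATS1 and -1.50 in siLATS2, that of MT1F -4.14, -2.22 and -1.86, and that of MT1E -3.67, -2.56 and -1.77. MT1G followed with -3.58, -2.19 and -1.64, and MT1X with -3.07, -1.58 and -1.07. MT1A was lower in all 3 groups as well, but in siLATS2 by less than the cut, at -0.38. This comparison was made after the values were seen and carries no test. The finding that all were metallothioneins depended on the pseudocount of 1. With a pseudocount of 0.5 the count was 7 genes, 5 of them metallothioneins, and with 0.1 it was 14, 6 of them metallothioneins. With at least 1 CPM asked of all 9 samples it was 2 of 2, since only 2 metallothionein genes were left.

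In siControl many other genes were lower in replicate 1 too. There MT2A ranked 70 from the lowest of 12901 genes and MT1X 409. In siLATS1, by contrast, MT2A, MT1E, MT1F and MT1G took the ranks 1 to 4, and in siLATS2 MT1F, MT1E, MT1G and MT2A took the same 4 ranks. GC-rich transcripts outside the family also had lower medians in replicate 1 of siControl and siLATS1, but not of siLATS2. The 5707 genes with a GC content of at least 49% had median differences of -1.12, -0.37 and 0.07 in siControl, siLATS1 and siLATS2. For 502 genes with transcripts under 800 bases they were -0.44, -0.22 and 0.04, and for the 327 with both -1.02, -0.40 and 0.06. With the pseudocount of 1, none of these genes was at least 0.58 lower in all 3 groups, nor was any other tested gene outside the family. The part of length and GC content in the metallothionein difference was not tested. No label says what the replicate number marks.

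The metallothionein genes had similar profiles to each other. Over the 9 samples, the root mean square distance between standardised profiles of member pairs ran from 0.177 for MT1E and MT1F to 0.468 for MT1A and MT1F, while a member and a gene outside the family were a median of 1.44 apart. To the mean profile, which was made from the 6 genes themselves, 5 of them lay at 0.135 to 0.218 and MT1A at 0.282. The 5 nearest genes outside the family were TMEM43 at 0.266, DHRSX at 0.322, TAP2 at 0.326, MRPL36 at 0.328 and MRGBP at 0.329, so TMEM43 was nearer than MT1A. The samples share depth and library preparation, and siControl replicate 1 weighs on every such distance. Some reads could come from more than 1 gene. All windows of 81 bases, the read length, were unique to the gene in MT1A, MT1F, MT1M and MT2A, and 89.8% to 95.2% of them in MT1E, MT1G, MT1H and MT1X. Since only uniquely mapped reads were counted, reads from windows shared with another locus were left out.

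Of 25 genes of zinc sensing and transport, 18 were tested and 0 were called in any of the 3 comparisons. Of all genes tested, 2.59% were called in siLATS1 and 0.225% in siLATS2 against siControl, and 1.86% between siLATS1 and siLATS2. MTF1, the zinc sensor itself, stood at 30.0, 29.6 and 30.5 CPM in siControl, 28.2, 33.6 and 26.8 CPM in siLATS1, and 30.7, 30.9 and 29.4 CPM in siLATS2. Its level was thus close to even across all 9 samples, with log2 fold changes of -0.03 in siLATS1 and 0.01 in siLATS2 against siControl. The exporter SLC30A1 had 25.6, 28.7 and 35.9 CPM in siControl, 18.0, 38.5 and 26.2 CPM in siLATS1, and 11.7, 33.0 and 26.8 CPM in siLATS2. As in the metallothioneins, replicate 1 was the lowest of each group, but here the difference was smallest in siControl (-0.32) and largest in siLATS2 (-1.28), with siLATS1 between them (-0.79). In siLATS2 SLC30A1 ranked 5 from the lowest of 12901 genes, right after the 4 metallothioneins, and MT1X ranked 6. The importer SLC39A10, named after its values were seen, had 121, 29.1 and 36.4 CPM in siControl, 84.3, 41.7 and 33.6 CPM in siLATS1, and 54.7, 52.6 and 32.3 CPM in siLATS2. It ran opposite to the metallothioneins, with replicate 1 the highest of each group. Its difference of 1.86 was the highest of the 12901 genes in siControl, and that of 1.15 in siLATS1 was the second highest, at rank 2, while 0.40 in siLATS2 ranked 137. Of the 18 zinc genes, 3 were lower in replicate 1 of all 3 groups (16.7%), against 11.2% of all genes tested. Only SLC39A10 of the 18 was higher in replicate 1 of all 3 groups, as were 1432 of the 12901 genes tested. The rest changed sign between groups. In siControl, siLATS1 and siLATS2, the differences were -3.23, -1.04 and 0.34 for SLC39A13, and 0.93, 0.64 and -0.25 for SLC30A7.

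**Figure D4:**
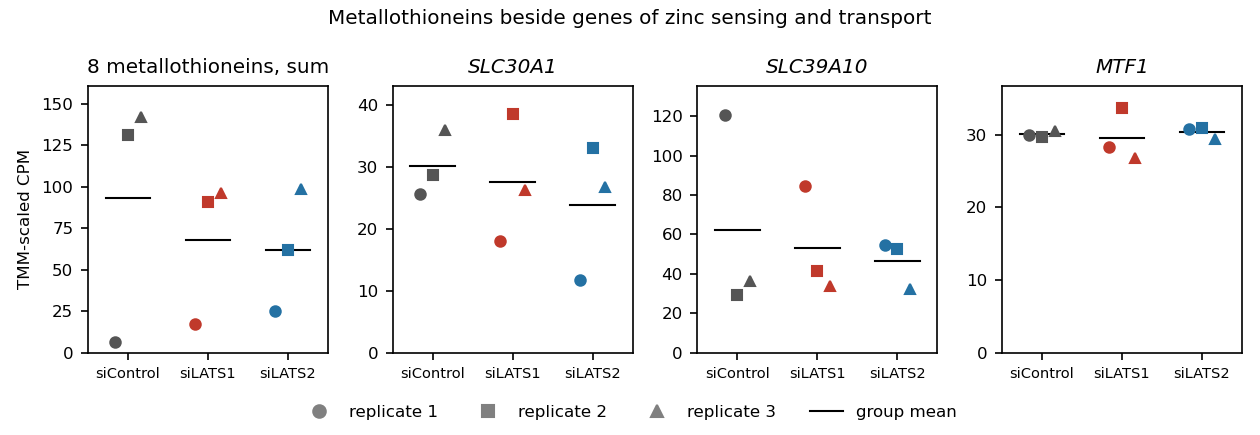
TMM-scaled CPM of the 8 metallothionein genes summed and of SLC30A1, SLC39A10 and MTF1 in the 9 samples, by siRNA group, each panel with its own vertical axis from 0. Circles, squares and triangles are replicates 1, 2 and 3, and the line is the group mean. The circle is the lowest of its group for the sum and for SLC30A1, the highest for SLC39A10, and near the others for MTF1.

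Few genes of the other known inducers of metallothioneins were called, as among all genes tested. There 2.59% were called in siLATS1 and 0.225% in siLATS2 against siControl, and 1.86% between siLATS1 and siLATS2. Lists of at most 16 genes are too short to tell their counts from these shares. Of 10 copper-handling genes, 0 were called in any comparison, with median log2 fold changes of -0.00 in siLATS1 and 0.01 in siLATS2 against siControl. Of 16 genes of the NRF2 response to oxidative stress, 1 was called, NQO1, a quinone reductase, lower in siLATS1 at 113 ± 8.28 CPM than in siControl at 217 ± 15.8 CPM (SD, n = 3), a log2 fold change of -0.93 (SE 0.15, adjusted p = 0.113 by limma). Haem oxygenase HMOX1, which like the metallothioneins responds to oxidants and metals, was not called, with log2 fold changes of 0.21 and 0.28. Unlike the metallothioneins it was higher in replicate 1 in siLATS1 (0.37) and siLATS2 (0.77), and lower in siControl (-1.03). Of 11 glucocorticoid-responsive genes, 10 were tested. The kinase gene SGK1 was called higher in siLATS1 than in siControl (log2 fold change 0.66, SE 0.16, adjusted p = 0.307 by limma), and the transcription factor gene CEBPD higher in siLATS1 than in siLATS2 (0.67, SE 0.25, adjusted p = 0.925 by limma). NR3C1, the glucocorticoid receptor, was not called, at -0.35 in siLATS1 and -0.29 in siLATS2. Of the 10 tested, 2 were lower in replicate 1 of all 3 groups (20%, against 11.2% of all genes tested) and 1 was higher. The 2 were TSC22D3 (-0.66, -0.35 and -0.21 in siControl, siLATS1 and siLATS2) and PER1 (-2.80, -0.76 and -0.03). Among the copper and NRF2 genes, 10% and 6.25% were lower in replicate 1 of all 3 groups. Of 10 heat shock genes 9 were tested and 0 called, and the chaperone gene HSPA1A had log2 fold changes of -0.23 and -0.06. HSPA1A was lower in replicate 1 of all 3 groups, by a log2 difference of -1.17, -0.46 and -0.22, which was less than in MT2A in each group. Another gene of that list, HSPB1, was further down than MT2A in siControl, at -5.25, but stood at -1.46 in siLATS1 and 0.14 in siLATS2. Of 9 genes on either side of the metallothionein cluster, 6 were tested, 0 were called, and 0 were lower in replicate 1 of all 3 groups.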

How the data were processed

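Total RNA of the 9 Huh7 samples was sequenced from libraries made, per the labels, with a stranded kit that depletes ribosomal RNA, whereas the study's Methods speak of poly-A+ RNA. Per the study's Methods, the authors mapped single-end reads of 81 bases to hg19 with STAR, kept unique hits, counted them over RefSeq exons, and deposited CPM per gene. Whether counting used strand is not given in the sources used here. Every value was a whole multiple of 1 read (tolerance 0.01 reads), which gave the depth. The 1 row without a gene in each file was left out. Symbols were found for 20474 of 20575 Entrez numbers (99.509%).

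CPM were scaled with TMM factors, filtered (1 CPM or more in 3 or more of the 9 samples) and fitted as log2(CPM + 1), a pseudocount of 1, with limma 3.58.1 in R 4.3.3 over all 9 samples, with a mean-variance trend. This scale understates changes of low genes. Adjusted p-values (Benjamini-Hochberg) cover all 12901 genes tested. The fit was tested on simulated data with planted changes and less spread between replicates than the metallothionein genes had. That test does not cover genes as variable as these. Alternatives were edgeR 4.0.16 and DESeq2 1.42.0 on the recovered reads, other scalings, pseudocounts and filters, the replicate number as a block, and fits without single samples. All 8 metallothionein genes are described, and from the gene lists those called in any comparison, with MTF1, SLC30A1, HMOX1, NR3C1 and HSPA1A in any case. The members, the lists and this rule were chosen with earlier results of these data known. Genomic positions were read from the GENCODE annotation of GRCh37 and promoter sequences from RefSeq (GRCh38.p14). LATS2 and the metallothionein genes MT3 and MT4 were not analysed here.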

Additional observations from a re-analysis of the deposited data

How the results depend on the processing

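No metallothionein gene was called in any of the 3 comparisons under other scalings, pseudocounts, filters, a fit without the trend, the 6 samples compared alone, edgeR or DESeq2. The number called ran from 0 to 2 in siLATS1 and from 0 to 1 in siLATS2 against siControl when 1 sample was left out, and the calls came without siControl replicate 1. With replicates 2 and 3 only, an alternative added after seeing the data, 1 gene was called in siLATS1 and 3 in siLATS2. The cause was not tested. The number of genes at least 0.58 lower in replicate 1 of all 3 groups was 14 with a pseudocount of 0.1, 6 of them metallothioneins. It was 7 with a pseudocount of 0.5, 5 of them metallothioneins. With at least 1 CPM in all 9 samples it was 2, both metallothioneins, where only 2 members were tested. These alternatives too were added after seeing the data.

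Most log2 fold changes were within their error of 0, and many changed sign. Without TMM factors, which moved the median of all genes in siLATS1 against siControl from -0.01 to 0.10, MT1E was 0.092 and MT1X 0.053 in siLATS1, and MT1A 0.029 in siLATS2. With median-of-ratios factors MT1E was 0.023 in siLATS1 and MT1A 0.012 in siLATS2. A pseudocount of 0.1 gave 0.24 for MT1E in siLATS1, and 0.31 for MT1A, 0.068 for MT1E and 0.12 for MT2A in siLATS2. A pseudocount of 0.5 gave 0.082 for MT1E in siLATS1 and 0.069 for MT1A in siLATS2. Without a filter these were 0.037 and 0.026. With at least 1 CPM in all samples MT1X was 0.0023 in siLATS1. By edgeR and DESeq2 MT1F was -0.13 in siLATS1 and -0.42 in siLATS2, MT1X was -0.41 by edgeR and -0.40 by DESeq2 in siLATS2, and MT2A was 0.13 in siLATS1 against siLATS2. In the 6 samples compared MT1A was 0.028 in siLATS2. With replicates 2 and 3 only, MT1F was -0.17 in siLATS1 and -0.54 in siLATS2, MT1X -0.57 and LATS1 0.084 in siLATS2, and MT1G 0.014, MT1X 0.069 and MT2A 0.33 in siLATS1 against siLATS2.

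Leaving out 1 sample at a time, the values in siLATS1 against siControl ran from -0.75 to 0.017 for MT1A, -1.18 to 0.88 for MT1E, -0.91 to 1.19 for MT1F, -1.91 to 0.00051 for MT1G, -1.02 to 0.50 for MT1X and -1.60 to 0.69 for MT2A. In siLATS2 against siControl they ran from -0.45 to 0.26 for MT1A, -1.39 to 0.41 for MT1E, -1.17 to 0.87 for MT1F, -1.74 to 0.025 for MT1G, -0.93 to 0.59 for MT1X, -1.53 to 0.64 for MT2A and -0.49 to 0.012 for LATS1. In siLATS1 against siLATS2 they ran from -0.39 to 1.07 for MT1E, -0.38 to 0.99 for MT1F, -0.73 to 0.56 for MT1G, -0.47 to 0.43 for MT1X and -0.69 to 0.83 for MT2A.

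The replicate number as a block left 0 metallothionein genes called in each comparison, and 362, 38 and 254 of all genes. Deviations of samples with the same number had a mean correlation of 0.205 (range -0.875 to 0.920), and 5 of the 9 samples correlated best with their own number, so the numbers were not taken to pair the samples. Depth limits MT1H and MT1M, and MT1G and MT1A in siControl replicate 1, where 1 and 3 reads were counted.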

Other observations

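The metallothionein pseudogene MT1L, which lies in the same cluster, had 0, 24 and 35 reads in siControl, 2, 17 and 15 reads in siLATS1, and 4, 11 and 12 reads in siLATS2. Replicate 1 was the lowest sample of each group there too, at levels too low for MT1L to pass the filter. MT1B was barely seen, with at most 0.163 CPM in any sample. HSPA1A was 1 of 3 heat shock genes of the 9 tested that were lower in replicate 1 of all 3 groups (33.3%, against 11.2% of all genes tested).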
